A study of Homo sapiens with 6 samples.

Results

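Tubulin isotypes are the products of separate genes that assemble into microtubules, and 10 of them were followed here in Toledo, an established human line from a diffuse large B cell lymphoma that grows in suspension. The 10 genes were picked by symbol from the 18278 genes listed for the series, as 4 alpha, 5 beta and 1 gamma tubulin, with earlier results of the same comparison known. Their difference between the groups is therefore described without a test. Messenger RNA had been sequenced from 3 samples given TP-064, an inhibitor of CARM1, at 5 uM for 6 days and from 3 samples kept for the same time with DMSO. CARM1 is an arginine methyltransferase that acts on histones and transcriptional coactivators. Both groups are the same line in the same medium, and the labels name no genetic change in either. Whether replicates came from separate cultures is not stated in the labels, so every p-value reflects the spread of these 6 samples alone, and that spread may be technical.

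Alpha and beta tubulin form the heterodimer from which microtubules are built, and gamma tubulin sits in the ring complexes from which new microtubules grow. Proliferating cells need microtubules for the mitotic spindle, and vertebrates carry several alpha and beta genes whose proteins differ mostly in their acidic tails. Cells also adjust tubulin mRNA to the pool of free dimers. The nascent tubulin chain is recognised by TTC5, and its mRNA is then degraded through SCAPER and the CCR4-NOT deadenylase.

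All 6 libraries were of similar depth, with 41354131 to 48360867 recovered reads over the listed genes. The B cell markers MS4A1, CD79A, CD79B, PAX5 and PTPRC were all present, with a summed normalized read count of 98615 to 105502 with TP-064 and 106793 to 107750 with DMSO. None of 4 T cell markers was listed. Of the myeloid markers, CD14, LYZ and CSF1R summed to 71.2 to 99.5 with TP-064 and 34.6 to 65.6 with DMSO. The 1 listed epithelial or stromal marker was COL1A1, at 134.6 to 137.5 with TP-064 and 273 to 305 with DMSO. ITGAM, EPCAM, KRT18, KRT19 and DCN were not in the table, and the part of these low signals in the results was not tested. TP-064 replicate 3 stood apart, with a correlation of log values of 0.989 to 0.990 with the other TP-064 libraries, against 0.995 within every other replicate pair of a group. It also carried more reads of the antisense genes opposite TUBA1B and TUBB, given below. It had 31 listed genes at zero reads, against 142 to 202 in the other libraries. The log2 difference of each member and the counts of each list are therefore also given without it.

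Of the 10 tubulin genes, 9 had lower mRNA with TP-064 and 1, TUBA1A, had higher mRNA. The median log2 difference, TP-064 minus DMSO, was -0.96, against 0.01 for all 16048 tested genes, and 4 of the 10 were at -1 or below, as were 6.59% of all tested genes. A normalized read count is the reads of a gene divided by the size factor of the library, and all 10 members passed the filter, a mean of 10 or more over the 6 samples. In the limma fit over all genes all 10 would be called at an adjusted p under 0.05, 9 lower and 1 higher. That rule called 65.1% of all tested genes, 33.3% as lower and 31.9% as higher. With scaling to library size alone, the calls were 6653 higher and 4158 lower in place of 5112 higher and 5337 lower, and the median of all tested genes moved to 0.13. The values of the 2 groups did not overlap for any of the 10, as for 69.1% of all tested genes. Since the members were chosen with this contrast known, nothing is read from these counts. Without TP-064 replicate 3 the median was -0.94, again with 9 genes lower and 1 higher. These are bulk samples, in which fewer cells of a type and less RNA per cell cannot be told apart.

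**Figure D1:**
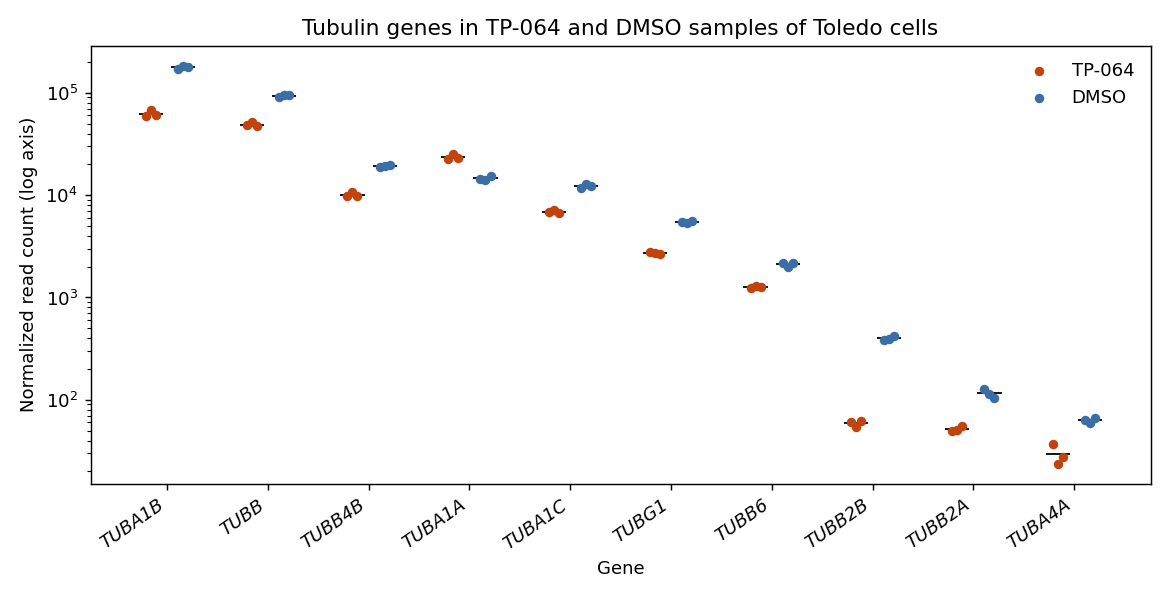
Normalized read count (log axis) of the 10 tubulin genes in each sample, TP-064 in orange-red on the left and DMSO in blue on the right, with bars at the group means. TUBA1A is the gene whose 3 TP-064 points lie above its DMSO points, at 22615 to 25118 against 14140 to 15271.

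TUBA1B, a ubiquitous alpha tubulin of dividing cells, was the most abundant of the set. It had 59694, 68214 and 60088 normalized read counts in TP-064 replicates 1, 2 and 3, against 169867, 183419 and 177065 in DMSO replicates 1, 2 and 3. Every treated sample lay below every control, and the gap between the groups was many times the spread within either. The means were 62666 ± 4809 with TP-064 and 176784 ± 6781 with DMSO (SD, n = 3 each), a log2 difference of -1.50 (SE 0.05), or -1.47 without TP-064 replicate 3. TUBA1C, a close relative of TUBA1B, had 6820, 7105 and 6651 normalized read counts with TP-064 and 11836, 12735 and 12411 with DMSO. Its log2 difference was -0.85 (SE 0.04), so that it was lowered by less than TUBA1B, and it was -0.82 without TP-064 replicate 3. TUBA4A, an alpha tubulin best known from platelets and neurons, was near the lower end of the measurement. It had 36.7, 23.7 and 27.4 normalized read counts with TP-064 and 63.3, 59.6 and 66.0 with DMSO, which rest on 24 to 61 reads per library. The treated samples were all lower but spread widely among themselves, with a coefficient of variation of 22.8%, the highest of any member, and a log2 difference of -1.10 (SE 0.21), or -1.07 without TP-064 replicate 3.

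TUBA1A, the main alpha tubulin of developing neurons, went the other way. It had 22615, 25118 and 23133 normalized read counts with TP-064 and 14352, 14140 and 15271 with DMSO. The lowest treated sample lay well above the highest control. The means were 23622 ± 1321 with TP-064 and 14587 ± 601 with DMSO (SD, n = 3 each), a ratio of 1.62 and a log2 difference of 0.69 (SE 0.04), or 0.71 without TP-064 replicate 3. Its ratio to TUBA1B, each taken per kb of exon, was 0.396, 0.385 and 0.402 in the TP-064 samples and 0.0883, 0.0805 and 0.0901 in the DMSO samples. With the longest transcript as length it was 0.633, 0.615 and 0.643 in the TP-064 samples and 0.141, 0.129 and 0.144 in the DMSO samples. The difference between their log2 differences was 2.19.

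The 5 beta tubulin genes were all lower with TP-064, with a median log2 difference of -0.93. TUBB, the main beta tubulin of dividing cells, had 48273, 51273 and 47411 normalized read counts with TP-064 and 91406, 94534 and 94362 with DMSO. TUBB4B, a broadly expressed beta tubulin that is also used in cilia, had 9854, 10785 and 9728 with TP-064 and 18856, 19304 and 19580 with DMSO. Both differed by nearly the same amount, with a log2 difference of -0.93 (SE 0.04) for each. Without TP-064 replicate 3 it was -0.91 for TUBB and -0.90 for TUBB4B. TUBB6, a more divergent beta tubulin, had 1235, 1295 and 1257 normalized read counts with TP-064 and 2154, 1977 and 2173 with DMSO. Its log2 difference of -0.73 (SE 0.05) was the smallest among the genes that were lower, and it was also -0.73 without TP-064 replicate 3.

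TUBB2B, a beta tubulin of developing brain, had the largest difference of the set. It had 60.3, 54.4 and 61.9 normalized read counts with TP-064, against 385, 392 and 416 with DMSO. The means were 58.9 ± 3.97 with TP-064 and 398 ± 16.5 with DMSO (SD, n = 3 each), 6.75 times as high with DMSO, and the log2 difference was -2.74 (SE 0.11), or -2.77 without TP-064 replicate 3. Of all tested genes, 23 including TUBB2B itself had a log2 difference as low. TUBB2A, its neighbour and closest relative, had 49.8, 50.4 and 54.8 with TP-064 and 127, 114 and 105 with DMSO, a log2 difference of -1.14 (SE 0.15), or -1.18 without TP-064 replicate 3. The treated levels of both genes thus lay close together, while the DMSO levels lay far apart. Both are low, with 51 to 122 reads per library for TUBB2A and 55 to 394 for TUBB2B.

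TUBG1, the gamma tubulin that nucleates microtubules, had 2783, 2746 and 2652 normalized read counts with TP-064 and 5415, 5322 and 5535 with DMSO. All treated samples lay below all controls, with 1.99 times as much in DMSO by the means, and the log2 difference of -0.99 had the smallest SE of the set, 0.04. Without TP-064 replicate 3 it was -0.97. Over all samples the within-group coefficient of variation of the members ran from 1.88% to 22.8%.

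**Figure D2:**
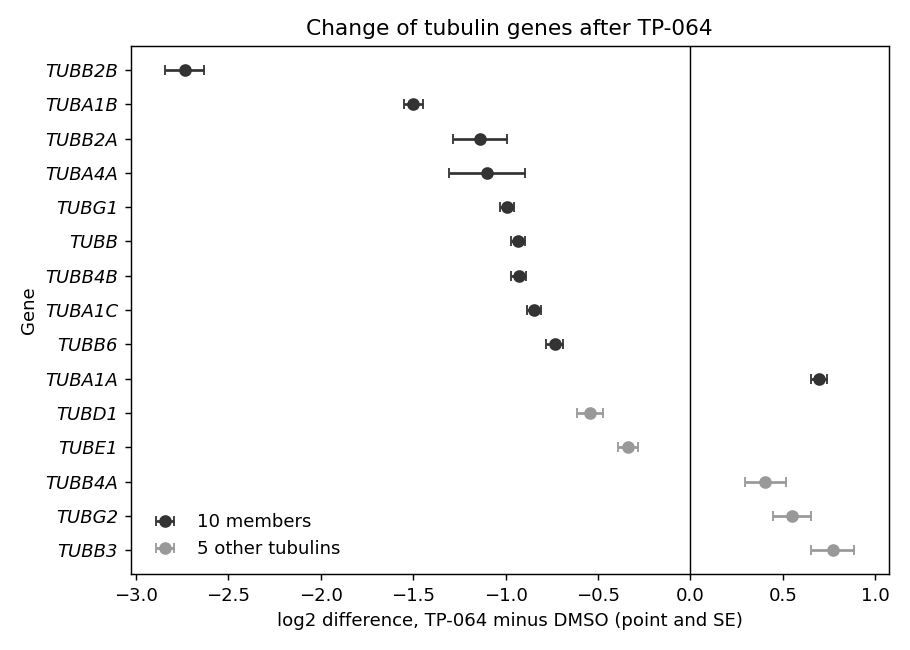
log2 difference, TP-064 minus DMSO, with its SE for the 10 members (black) and for 5 other tubulin genes (grey). TUBB2B lies lowest at -2.74. TUBA1A at 0.69, and TUBB3 at 0.77, TUBG2 at 0.55 and TUBB4A at 0.41 of the other tubulin genes, lie to the right of 0.

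Levels were compared between genes as normalized read counts per kb of annotated exon. In both groups TUBA1B stood first, at 17534 ± 1346 per kb with TP-064 and 49464 ± 1897 with DMSO, and TUBB second, at 14583 ± 603 with TP-064 and 27816 ± 524 with DMSO (SD, n = 3 each). In TP-064 samples TUBA1A came next at 6905 ± 386 per kb, ahead of TUBB4B at 4795 ± 273. In DMSO samples TUBB4B came next at 9117 ± 173 per kb, ahead of TUBA1A at 4264 ± 176. TUBA1C, TUBG1 and TUBB6 followed in that order in both groups. At the low end TUBB2A preceded TUBB2B with TP-064, at 29.9 ± 1.58 and 26.8 ± 1.81 per kb, while with DMSO TUBB2B preceded TUBB2A, at 181 ± 7.50 and 66.8 ± 6.32 per kb. TUBA4A was last in both groups. The ranges of neighbours in these orders did not overlap within a group. The TP-064 ranges of TUBB2A and TUBB2B came closest, with a lowest value of 28.8 for TUBB2A and a highest value of 28.2 for TUBB2B. With the longest transcript as length both orders were as given.

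The make-up of the alpha pool differed between the groups, while the main beta members kept close to the same shares. As a share of the summed level per kb of the 4 alpha members, TUBA1A made up 26.7%, 26.3% and 27.0% in the TP-064 samples and 7.73%, 7.10% and 7.87% in the DMSO samples. The TUBA1B share was 67.6% ± 0.559 with TP-064 and 87.7% ± 0.411 with DMSO (SD, n = 3 each). With the longest transcript as length the TUBA1A shares became 36.1% with TP-064 and 11.4% with DMSO. For TUBA1B the exon length was 3574 bases and the longest transcript 3198, while its annotated principal transcript has 1627. For TUBA1A they were 3421 and 1915, and its principal transcript has 1915. Shares, class sums and the ratio of TUBA1A to TUBA1B by principal transcript were not computed, and the 2 lengths used do not bound them. Among the 5 beta members TUBB made up 73.9% ± 0.258 with TP-064 and 73.8% ± 0.209 with DMSO, and TUBB4B 24.3% ± 0.306 with TP-064 and 24.2% ± 0.129 with DMSO. TUBB2B was a minor part, at 0.136% ± 0.0149 of the beta sum with TP-064 and 0.481% ± 0.0147 with DMSO. The summed alpha level per kb was 25927 ± 1772 with TP-064 and 56405 ± 1978 with DMSO, a ratio of 0.460. The summed beta level was 19742 ± 879 with TP-064 and 37692 ± 674 with DMSO, a ratio of 0.524. With the longest transcript as length the ratios were 0.511 for alpha and 0.525 for beta, so the gap between the classes depends on the length used. The 10 genes together took 0.366% ± 0.0123 of all normalized reads with TP-064 and 0.698% ± 0.0145 with DMSO (SD, n = 3 each).

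**Figure D3:**
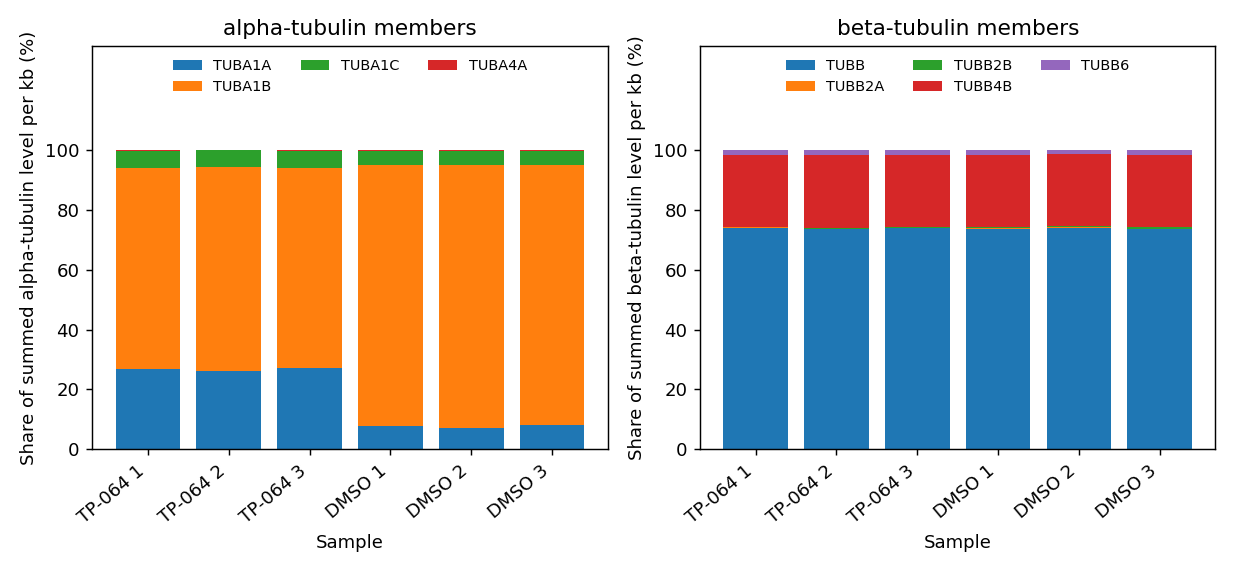
Share (%) of each member in the summed level per kb of exon of the alpha members (left) and beta members (right) in each sample. TUBA1A takes 26.3% to 27.0% of the alpha sum in the TP-064 samples and 7.10% to 7.87% in the DMSO samples, while TUBB stays near 74% of the beta sum in all 6.

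The members that differed most from their relatives sit in a pair of gene clusters. On chromosome 12 of GRCh38 TUBA1B lies from 49127782 to 49131397 on the minus strand and TUBA1A from 49184796 to 49189324 on the same strand, 53.4 kb away. TUBA1C lies from 49188736 to 49274603 on the plus strand and overlaps the 5′ end of TUBA1A. On chromosome 6 TUBB2A lies from 3153669 to 3157526 and TUBB2B from 3224261 to 3231730, both on the minus strand and 66.7 kb apart. The coding sequences of TUBA1A and TUBA1B were 97.2% identical and those of TUBB2A and TUBB2B 98.2%. The 250 bases before the start, the first listed start alone for TUBA1C, TUBB and TUBB6, were far less alike. Identity was 49.1% for TUBA1A and TUBA1B and 49.5% for TUBB2A and TUBB2B, within the 39.2% to 52.7% of the other 43 pairs of members. These 4 upstream windows, from RefSeq on GRCh38.p14, are shown because the genes of each pair are nearly identical in coding sequence and had unlike log2 differences. Capitals mark matches to the motifs described next, and each is written 5′ to 3′ on the minus strand, from chr12:49189081-49189330 for TUBA1A, chr12:49131396-49131645 for TUBA1B, chr6:3157545-3157794 for TUBB2A and chr6:3227654-3227903 for TUBB2B.
TUBA1A: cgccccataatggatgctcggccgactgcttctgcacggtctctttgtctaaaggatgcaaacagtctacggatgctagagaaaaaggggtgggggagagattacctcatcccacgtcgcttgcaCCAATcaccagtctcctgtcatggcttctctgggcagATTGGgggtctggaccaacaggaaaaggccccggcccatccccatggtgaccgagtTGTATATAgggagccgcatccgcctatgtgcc
TUBA1B: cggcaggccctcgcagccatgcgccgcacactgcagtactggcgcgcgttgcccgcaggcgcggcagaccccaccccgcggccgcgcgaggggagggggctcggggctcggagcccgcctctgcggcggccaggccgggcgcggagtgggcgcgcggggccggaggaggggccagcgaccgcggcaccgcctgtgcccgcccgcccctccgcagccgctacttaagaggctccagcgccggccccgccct
TUBB2A: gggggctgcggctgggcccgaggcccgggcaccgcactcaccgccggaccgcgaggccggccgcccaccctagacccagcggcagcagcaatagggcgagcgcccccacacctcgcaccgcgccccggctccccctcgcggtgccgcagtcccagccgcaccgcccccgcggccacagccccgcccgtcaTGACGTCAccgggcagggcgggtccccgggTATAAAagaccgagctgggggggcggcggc
TUBB2B: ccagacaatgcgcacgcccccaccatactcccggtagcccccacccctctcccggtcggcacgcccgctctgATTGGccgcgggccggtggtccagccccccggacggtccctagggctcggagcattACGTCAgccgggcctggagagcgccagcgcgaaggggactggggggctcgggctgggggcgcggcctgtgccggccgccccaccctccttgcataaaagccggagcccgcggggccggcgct

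Short motifs, chosen with these sequences in view, were searched on both strands in the 250 bases before each of the 14 RefSeq starts of the members and in 34943 such windows of all genes. The CCAAT box, bound by NF-Y, was found for 7 of the 10 members, in 9 of their 14 windows, and in 32.03% of all windows. TUBA1C has 3 starts, and the windows of its starts 1 and 2 overlap and hold the same copy. It occurred at -125 and -88 from the TUBA1A start and at -178 for TUBB2B. TUBB4B held 3 copies, and none was found for TUBA1B, TUBA4A or TUBB2A. The letters TTTGAA, a form of the cell cycle homology region, were found for TUBA1C and TUBB4B, in 3 of the 14 windows, and in 13.4% of all windows. TTTNNCGC, a form of the E2F site, was found for TUBB6 and TUBG1, in 2 of the 14 windows, and in 5.89% of all windows. TATANA, a loose form of the TATA box, was found for TUBA1A, TUBA1C, TUBB2A and TUBB4B, with overlapping matches in TUBA1A. That is 4 of the 14 windows, against 17.7% of all windows. ACGTCA, part of the cAMP response element, was found for TUBB2A and TUBB2B, in 2 of the 14 windows, and in 7.09% of all windows. In TUBB2A it matched on both strands of 1 site. A match is a description of the letters in the window and is no measured binding site.

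Near-identical copies can share reads, so the values of several members are uncertain. The orders per kb, the shares and the ratio of TUBA1A to TUBA1B rest on these values and are uncertain in the same way. The effect of shared reads on them was not tested. The principal transcript of each member was read in windows of 50 bases, and the share of windows found in no other annotated gene was 34.5% for TUBB2A, 37.3% for TUBA1B, 47.8% for TUBB2B, 58.9% for TUBA1A, 70.1% for TUBG1 and 74.9% for TUBA1C. It was 81.8% for TUBB and at least 90.1% for TUBB4B, TUBA4A and TUBB6. TUBB2A shared 60.3% of its windows with TUBB2B, and TUBB2B shared 47.3% of its windows with TUBB2A. TUBA1A shared most with TUBA1B, in 32.6% of windows, and TUBG1 with TUBG2, in 29.1%. Listed tubulin pseudogenes were low. TUBBP1 averaged 6.41 normalized read counts with TP-064 and 14.9 with DMSO, TUBAP2 8.42 with TP-064 and 18.5 with DMSO, and TUBB4BP2 12.03 with TP-064 and 12.2 with DMSO.

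Genes on the opposite strand overlap exons of all members but TUBB2A, and although the kit was a stranded one, how strand was set in counting is not stated, so reads of such partners cannot be told apart. Most protein-coding partners were well expressed. PSMG4, opposite TUBB2B, averaged 566 normalized read counts with TP-064 and 595 with DMSO. RETREG3, opposite TUBG1, averaged 8512 with TP-064 and 6770 with DMSO. STK16, opposite 15.4% of the TUBA4A exon bases, averaged 1368 with TP-064 and 1176 with DMSO. TUBA4A itself averaged only 29.3 with TP-064 and 63.0 with DMSO. AFG3L2, opposite 20.3% of the TUBB6 exon bases, averaged 6401 with TP-064 and 8065 with DMSO, also above TUBB6. TUBA1A and TUBA1C are partners of each other. TUBA1C lies opposite 14.3% of the TUBA1A exon bases. TUBA1A and the antisense gene AC125611.3 lie opposite 25.0% of the TUBA1C exon bases. TUBA1A averaged 23622 with TP-064 and 14587.5 with DMSO, and TUBA1C 6859 with TP-064 and 12327 with DMSO. The part of such reads in the TUBA4A, TUBB6, TUBA1A and TUBA1C values was not tested. Antisense partners were high in 1 library. AC011603.2, opposite TUBA1B, had 53.3, 87.0 and 771 normalized read counts in TP-064 replicates 1, 2 and 3, and 221, 160 and 150 with DMSO. AL662797.1, opposite TUBB, had 6.99, 17.8 and 372 with TP-064 and 40.5, 22.9 and 21.6 with DMSO. Both lay highest in TP-064 replicate 3, where they had 771 and 372 normalized read counts, against 60088 for TUBA1B and 47411 for TUBB.

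By profile over the 6 samples, the tested genes most like TUBA1B were UNG, which removes uracil from DNA, FANCB of the Fanconi repair core, and MCM5, a subunit of the replicative helicase. Their profiles, centred on the DMSO mean, differed from that of TUBA1B by a root mean square of 0.032, 0.033 and 0.035 on the log2 scale. Those most like TUBB2B were SH2D4A, CLCN4 and HIST1H3F, at 0.070, 0.091 and 0.15. Those most like TUBA1A, the member with the smallest absolute change, were the G1 kinase CDK6, CREB3L4 and the phospholipase PLD2, at 0.030, 0.032 and 0.035. With 2 groups such likeness mostly reflects a like difference between the groups.

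Of a list of 12 other tubulin genes 6 were in the table and 5 passed the filter, and all 5 passed the limma test, 3 higher and 2 lower with TP-064, where 65.1% of all tested genes passed. TUBB3, a neuronal beta tubulin, rose to 168.9 ± 15.05 normalized read counts with TP-064, against 98.5 ± 5.56 with DMSO (SD, n = 3 each), 0.77 higher on the log2 scale (SE 0.12, limma adjusted p = 3.58e-05). TUBB4A, another beta tubulin of brain, rose to 198 ± 18.5 with TP-064, against 149 ± 14.8 with DMSO (0.41, SE 0.11, limma adjusted p = 0.00527). TUBG2, the second gamma tubulin, rose to 357 ± 14.0 with TP-064, against 245 ± 36.7 with DMSO (0.55, SE 0.10, limma adjusted p = 0.000242). TUBD1 and TUBE1, the delta and epsilon tubulins of centrioles, fell, with log2 fold changes of -0.54 (SE 0.07) and -0.34 (SE 0.05). TUBA8 had a mean below the filter, at 8.57 normalized read counts with TP-064 and 6.57 with DMSO. Without TP-064 replicate 3 the counts were also 3 higher and 2 lower.

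Genes that act on tubulin were read from the same fit, with lists drawn up with earlier results known. PFDN2, CNOT3, CNOT8, CNOT11, HAUS4, TUBGCP2, TPGS1, TPGS2 and KIAA0895L, named below, also overlap exons of a gene on the opposite strand and are uncertain in the same way. In the gamma-tubulin complex and augmin list, whose products start microtubules at centrosomes and along spindle fibres, 16 of 19 tested genes fell and 1 rose, with a median log2 fold change of -0.59. Of all tested genes 33.3% fell and 31.9% rose. Without TP-064 replicate 3 the list had 16 genes lower and 2 higher. Of the augmin subunits, HAUS8 fell by 1.77 (SE 0.05, limma adjusted p = 2.6e-13) and HAUS4 fell by 1.33 (SE 0.06, limma adjusted p = 3.54e-11) on the log2 scale. MZT1, a small subunit that activates the ring complex, fell by 1.12 (SE 0.06), to 657 ± 61.9 normalized read counts with TP-064, against 1429 ± 46.8 with DMSO (SD, n = 3 each). TUBGCP6, a scaffold of the ring complex, rose by 0.41 (SE 0.03, limma adjusted p = 3.89e-08). TUBGCP2 at -0.09 (limma adjusted p = 0.0984, 0.00898 to 0.398 over the alternatives) and PCNT at 0.08 (limma adjusted p = 0.0560, 0.000158 to 0.232 over the alternatives) did not pass the test, and both are named because they are all that remain of the list.

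**Figure D4:**
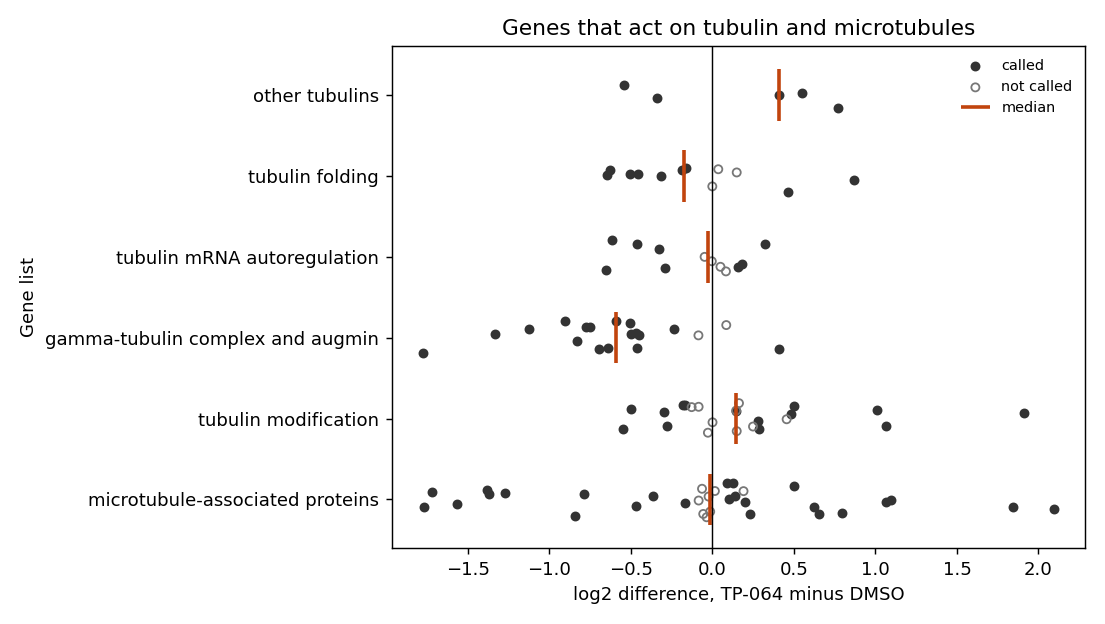
log2 difference, TP-064 minus DMSO, of each tested gene in 6 lists of genes related to tubulin, filled where the limma adjusted p is under 0.05 and open otherwise, with the list median as an orange-red line and random vertical jitter. Most genes of the gamma-tubulin complex and augmin list lie left of 0, with a median of -0.59, and the other lists spread to both sides.

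In the tubulin folding list 7 of 12 tested genes fell and 2 rose, with a median of -0.17, so that 9 of 12 were called where 65.1% of all tested genes were. Without TP-064 replicate 3 it was 7 lower and 3 higher. The prefoldin subunits VBP1 and PFDN2 pass nascent tubulin to the chaperonin. VBP1 fell by 0.65 (SE 0.04), PFDN2 fell by 0.63 (SE 0.05), and the cofactor TBCA, which holds beta tubulin, fell by 0.50 (SE 0.04). TBCEL, a tubulin-destabilising relative of the cofactors, rose by 0.87 (SE 0.06), and TBCC, which acts on the assembled folding complex, rose by 0.47 (SE 0.04). With scaling to library size alone this list had 5 genes higher and 5 lower.

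In the list of tubulin mRNA autoregulation 5 of 12 tested genes fell and 3 rose, with a median of -0.03, and its 8 calls of 12 are near the 65.1% called over all tested genes. The counts were the same without TP-064 replicate 3. TTC5 did not pass the test, with 1718 ± 50.9 normalized read counts with TP-064 and 1725 ± 119 with DMSO (SD, n = 3 each), -0.00404 on the log2 scale (SE 0.05, limma adjusted p = 0.952, 0.0400 to 0.986 over the alternatives). SCAPER was at 472 ± 30.2 with TP-064 and 445 ± 12.004 with DMSO (limma adjusted p = 0.309, 0.0148 to 0.599 over the alternatives). TTC5 and SCAPER were chosen for naming after their values were seen. Of the CCR4-NOT genes the deadenylase CNOT6 fell by 0.65 (SE 0.05), CNOT9 fell by 0.62 (SE 0.04) and CNOT3 fell by 0.47 (SE 0.05). CNOT8 rose by 0.32, CNOT6L by 0.18 and CNOT11 by 0.16. Library size scaling gave 6 higher and 5 lower.

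In the tubulin modification list, whose enzymes add or remove acetyl, tyrosine and glutamate groups on tubulin, 8 of 23 tested genes rose and 6 fell, with a median of 0.15. Its 14 calls of 23 are near the 65.1% called over all tested genes, and the counts were the same without TP-064 replicate 3. Library size scaling gave 11 higher and 3 lower. TPGS1 and TTLL1, subunits of a polyglutamylase, rose by 1.06 (SE 0.09) and 1.01 (SE 0.09). TPGS2, of the same complex, fell by 0.18 (SE 0.04) but did not pass under every alternative. KIAA0895L, now known as a tubulin detyrosinase, rose by 0.50 (SE 0.07). Of the tubulin tyrosine ligase-like family, which also holds TTLL1, TTLL4 fell by 0.55 (SE 0.05) and TTLL12 fell by 0.50 (SE 0.04). TTLL6 rose by 1.91 (SE 0.40) at a low level, 27.6 normalized read counts with TP-064 and 7.21 with DMSO. TTLL11 rose by 0.28 (SE 0.09) but did not pass under every alternative. TPGS2, TTLL6 and TTLL11 were chosen for naming after their values were seen. TTLL7 fell by 0.30 (SE 0.09, limma adjusted p = 0.0133) but did not pass under every alternative, with a highest adjusted p of 0.127.

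Microtubule-associated proteins were divided, with 14 of 33 tested genes higher, 11 lower and a median of -0.01, so that 25 of 33 were called where 65.1% of all tested genes were. Library size scaling gave 18 higher and 10 lower, and leaving out TP-064 replicate 3 gave 13 higher and 11 lower. TPX2 and TACC3 build and crosslink the spindle. TPX2 fell by 1.77 (SE 0.04, limma adjusted p = 2.35e-14), TACC3 fell by 1.72 (SE 0.04, limma adjusted p = 4.72e-14), and MID1, a ubiquitin ligase that binds microtubules, fell by 1.57 (SE 0.15). STMN3, a stathmin that binds free tubulin, rose by 2.10 (SE 0.13, limma adjusted p = 2.25e-09), to 274 ± 45.3 normalized read counts with TP-064, against 62.8 ± 4.33 with DMSO (SD, n = 3 each). CLIP2, a protein of growing microtubule ends, rose by 1.84 (SE 0.04), and MAP1A, a lattice-binding protein known mostly from neurons, by 1.10 (SE 0.06).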

How the data were processed

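Messenger RNA of 6 Toledo samples was measured, 3 treated with TP-064 and 3 with DMSO. Per the labels' protocols, RNA was column-purified and made into stranded libraries. The submitters' processing notes name hg38, TopHat2 2.0.10, DESeq 1.18.0 and HTSeq 0.6.0. No source names the annotation release, how strand was handled or whether rows were removed. The authors deposited for each of 18278 genes a signal in each sample, its reads over a size factor. Dividing each column by its smallest step returned whole reads for 100% of values (tolerance 0.001). Replicate 2 of either group has a size factor of 1.01, so close to 1 that whole reads are a weaker check there.

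limma 3.58.1 in R 4.3.3, with the trend option, was fitted to log2 of the normalized count plus a pseudocount of 1 for 16048 genes with a mean of at least 10, with Benjamini-Hochberg adjustment at 0.05, two-sided, over all of them. Differences subtract DMSO from TP-064 on that scale, which understates those of low genes. The procedure was tested on simulated data with changes planted only in well expressed genes and with known size factors. That simulation therefore does not bear on low genes or on the choice of scaling. edgeR 4.0.16 and DESeq2 1.42.0 were run on the recovered reads as alternatives, with other scalings, filters and pseudocounts, a replicate block and each replicate left out. Chi-square values between replicates were 3.21 to 8.10 per degree of freedom, so each library counted separately.

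Symbols, positions and exon lengths come from GENCODE 29 on GRCh38, matched by identifier without version for 18214 genes, and promoters from RefSeq, matched for all 10 members. Members and gene lists were chosen with earlier results of these data known. Named genes were all members and, from each related list, up to 3 called genes with the largest fall and 3 with the largest rise among those with a mean of at least 100 in either group. Nearest genes were the 3 with the smallest root mean square difference of profiles, for the member with the largest fall, that with the smallest absolute change and the most abundant. Alignments used Biopython 1.88. 1 further B cell marker is not reported here.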

Additional observations from a re-analysis of the deposited data

How the results depend on the processing

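Over 16 alternative settings each of the 10 tubulin genes kept the sign of its log2 difference, with TUBA1A between 0.65 and 0.82, TUBA1B between -1.56 and -1.38 and TUBB2B between -2.77 and -2.61. The median over the members was -0.84 with library size scaling, which moved the median of all genes to 0.13, and it ran from -0.97 to -0.94 with 1 replicate left out. The fit called 10449 genes, 5112 higher and 5337 lower, and 10811 with library size scaling, 6653 higher and 4158 lower. Of the 104 related genes tested, 78 were called and 66 of them under every setting. With the longest transcript as length TUBA1A made up 36.1% of the alpha sum with TP-064 and 11.4% with DMSO, and TUBB2B 0.459% of the beta sum with DMSO. Shares by principal transcript were not computed. With 1 replicate left out the TUBA1A share was 26.5% to 26.8% with TP-064 and 7.41% to 7.80% with DMSO. Deviations from the group means correlated at -0.086, 0.066 and -0.079 between same-numbered samples. Between unlike-numbered samples they ran from -0.115 to 0.146. With 3 samples in each group these values cannot show whether the numbers pair samples. A fit with the replicate block called 10491 genes. The recovered reads limit TUBA4A most, with 24 reads in its lowest library.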
